A study of Mus musculus with 6 samples.

Results

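Heparan sulfate, chondroitin sulfate and hyaluronan are long sugar chains of the cell surface and the matrix, and 51 genes that encode their enzymes and core proteins are described here. They were chosen by symbol from the 43346 rows of a table of transcript levels, and all 51 had a row. RNA was sequenced from MC3T3-E1, an established mouse osteoblastic cell line. The 2 groups were a line labelled Rorβ-CRISPR (KO), edited in the nuclear receptor gene Rorb, and the MC3T3 control line, with 3 libraries each. Both had been kept in osteoblastic medium for 2 days after confluence. The labels do not say whether the edited line was 1 clone. Nor do they say that replicates came from separate cultures, so the p-values reflect the spread among these 6 libraries alone, which may be technical. The labels name these 2 lines and nothing else, so the edit cannot be told apart from any other difference between the lines.

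Heparan and chondroitin sulfate are built on core proteins. A linker of xylose, galactose, galactose and glucuronic acid is first placed on a serine of the core. EXT enzymes then extend a heparan chain, or chondroitin synthases a chondroitin chain, and sulfotransferases and epimerases modify it. The pattern of sulfate groups affects which growth factors the chain binds, among them fibroblast growth factors, bone morphogenetic proteins and Wnts in bone. Hyaluronan has no core protein and no sulfate, and is made at the plasma membrane. Glypicans are heparan sulfate proteoglycans held by a lipid anchor, and syndecans cross the membrane. Versican is a large chondroitin sulfate proteoglycan of the matrix.

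Reads in genes per library ranged from 34662707 to 42603315. The values given are the authors' TMM-scaled ones, in reads per 1000000 reads of an effective library size. A ± sign gives the SD of 3 libraries. Intervals on reads cover counting error only. The targeted gene went against its label: Rorb had 69, 78 and 111 reads in the libraries labelled Rorβ-CRISPR, against 1, 3 and 0 in the control libraries. Per effective library size that is a ratio of 58.8, with an exact 95% interval of 22.7 to 217. Gene totals cannot show an edit of a few bases, and all directions are those of the labels. Of 8 osteoblast markers 4 were higher (Runx2, Sp7, Alpl and Ibsp) and 4 lower (Col1a1, Col1a2, Spp1 and Bglap). Over all genes tested below, 32.9% were higher and 33.3% lower. The values of the 8 osteoblast markers, mostly Col1a1 and Col1a2, summed to 38376 to 39723 in the libraries labelled Rorβ-CRISPR. In the control libraries these 8 markers summed to 65380 to 67748. Runx2, the main osteoblast transcription factor gene, averaged 261 ± 2.35 in the libraries labelled Rorβ-CRISPR and 224 ± 6.57 in the control libraries. Blood markers summed to 14.2 to 15.2 in the libraries labelled Rorβ-CRISPR and 20.3 to 23.4 in the control libraries. Most of each sum was Lyz2, with means of 7.64 and 14.9, and Csf1r, with means of 6.38 and 6.59. Lyz2 was lower by 0.88 (log2) and Csf1r was not called. Cd68, not tested, had 93 reads in the libraries labelled Rorβ-CRISPR and 78 in the control libraries. Ptprc had 0 and 1, and Emr1 had 0 in all libraries. Chondrocyte markers summed to 234 to 246 in the libraries labelled Rorβ-CRISPR and 328 to 350 in the control libraries. Most of each sum was Col2a1, with means of 186 and 283. Of these 6 markers 3 were tested, and Sox9 and Col2a1 were lower by 0.20 and 0.60 (log2), Col11a2 was higher by 0.57, and Acan had 0 reads. Matn1, not tested, had 26 reads in the libraries labelled Rorβ-CRISPR and 0 in the control libraries. Adipocyte markers summed to at most 0.0868 and muscle markers to at most 2.68 in any library. Endothelial markers summed to at most 0.434 and 0.460, with Cdh5 and Kdr at 0 reads in both. The 3 rows that collect ribosomal RNA reads held 13.1% to 15.2% of the reads in the libraries labelled Rorβ-CRISPR and 16.9% to 25.4% in the control libraries. With these rows left out of the scaling, 14 of the 40 genes tested below were higher and 22 lower, against 33.7% and 31.8% of all genes. Without control replicate 1, which had the highest share, 10 were higher and 21 lower, against 31.5% and 31.3% of all genes.

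Of the 51 genes, 40 passed the filter on low values, which asked for 1 or more in 3 or more libraries, and each of these 40 reached 1 in all 6 libraries. The other 11 did not pass. Differences were tested with limma-trend on log2(value + 1), with a Benjamini-Hochberg adjusted p of 0.05 as threshold over 13498 genes. In the libraries labelled Rorβ-CRISPR 23 of the 40 were lower (57.5%), 14 were higher (35.0%) and 3 were not called. Of all tested genes, 33.3% were lower, 32.9% higher and 66.2% called in either direction, so being called is common in this comparison. The median log2 fold change was -0.15 for the 40 genes and 0.0025 for all 13498. In 35 of the 40 genes the libraries of the 2 groups did not overlap, against 68.4% of all tested genes. Most differences were small, with log2 fold changes between -1.96 and 0.69. Called differences of at least 0.58 on the log2 scale numbered 8 lower and 1 higher, where the shares over all tested genes were 8.22% and 5.94%. Tested against a fold of 1.5, 5 were lower and 0 higher, against 4.78% and 3.06% of all tested genes. Of the 40, 27 had a q under 0.05 in the authors' deposited table, 19 of them lower and 8 higher, where the shares of all tested genes were 28.9% and 28.1%. All 27 were among the 37 called here. In bulk RNA, fewer cells of a type and less RNA per cell cannot be told apart. Scaled by library size only, which moved the median of all genes by 0.21 (log2), 15 of the 40 were lower and 16 higher, against 14.6% and 54.0% of all genes.

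**Figure D1:**
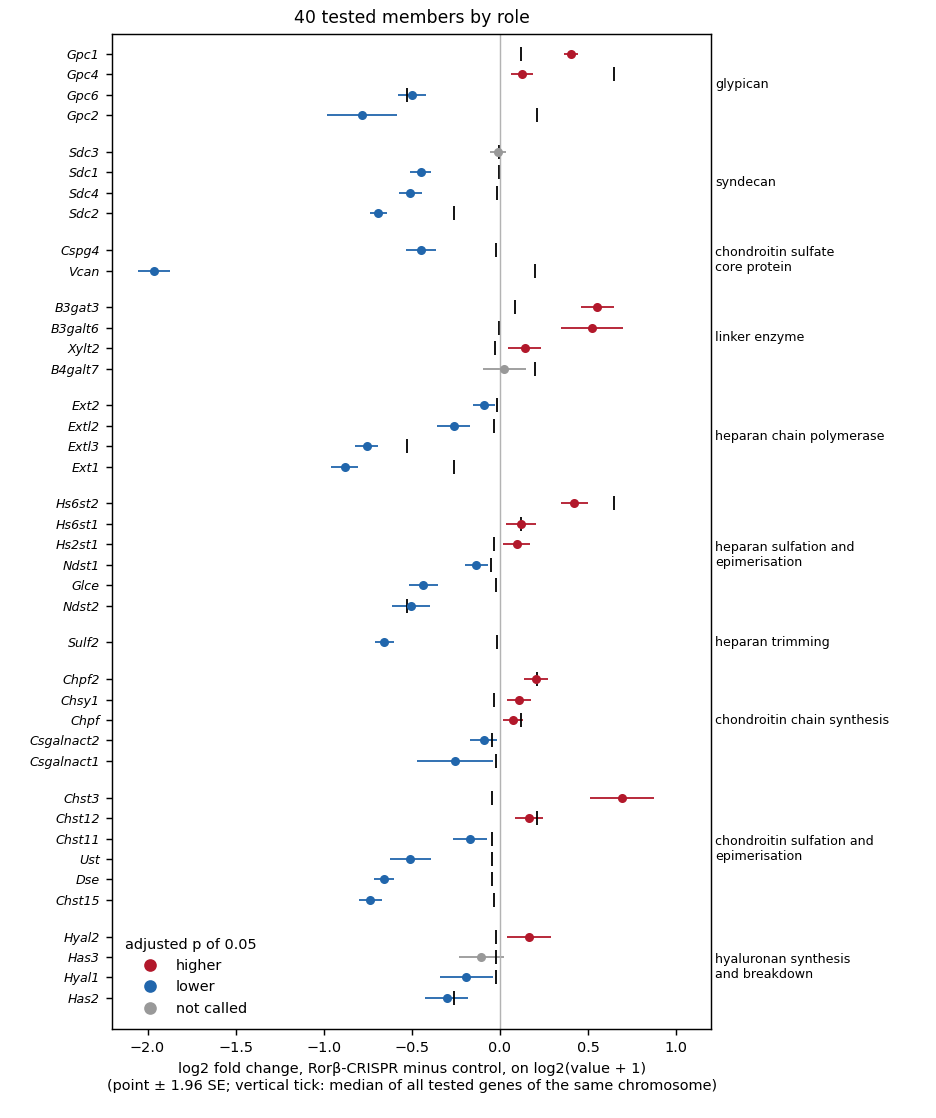
Log2 fold change on the log2(value + 1) scale (x axis, point ± 1.96 SE), Rorβ-CRISPR minus control, for the 40 tested genes in rows grouped by role. Red points are higher and blue points lower at an adjusted p of 0.05, grey points were not called, and each vertical tick is the median of all tested genes of the same chromosome. Vcan at -1.96 lies furthest from 0. The 4 genes in the group labelled heparan chain polymerase, which also holds Extl2 and Extl3, lie below 0. Ext2 and Extl2 were not called with library size only.

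Glypican genes were divided, and Gpc1 dominated them. Gpc1 had values of 1199, 1163 and 1187 in the libraries labelled Rorβ-CRISPR, against 896, 909 and 876 in the control libraries. Every Rorβ-CRISPR library thus lay above every control library (log2 fold change 0.40, SE 0.021, limma-trend adjusted p = 2.08e-23). Gpc4 averaged 149 ± 5.99 in the libraries labelled Rorβ-CRISPR and 137 ± 4.57 in the control libraries, a rise of 0.12 (log2, adjusted p = 6.27e-04). Gpc4 lies on chromosome X, whose 435 tested genes had a median log2 fold change of 0.65, and it turned to -0.53, called lower, when each chromosome was centred on its own median. Gpc6 fell to 44.3 ± 1.08 in the libraries labelled Rorβ-CRISPR, against 63.1 ± 1.04 in the control libraries. Its log2 fold change of -0.50 lay beside the median of -0.53 for chromosome 14, where it lies, and centring brought it to 0.01 (adjusted p = 0.777). Gpc2, a glypican of low level here, had 3.20, 2.50 and 2.88 in the libraries labelled Rorβ-CRISPR, against 5.63, 5.32 and 5.89 in the control libraries. It fell in log2 by 0.78 with no overlap, on a log2(value + 1) scale that shrinks low values. The ratio of its means was 0.509. Gpc2 lies on chromosome 5, and centring took it to -0.99. However, 91.9% of its exon bases in GENCODE M21 are shared with a longer gene model of the same strand, Gm43720. Gpc3, on chromosome X and known from a human overgrowth syndrome, had 9 reads in all libraries labelled Rorβ-CRISPR and 9 in all control libraries.

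Syndecan transcripts fell, apart from Sdc3. Sdc2 had 283, 281 and 275 in the libraries labelled Rorβ-CRISPR, against 450, 449 and 456 in the control libraries (log2 fold change -0.69, SE 0.024, limma-trend adjusted p = 3.54e-30). The groups lay far apart relative to their spread. Sdc2 lies on chromosome 15, whose median was -0.26, and remained at -0.42 after centring. Sdc4, which joins integrins at focal adhesions, averaged 80.9 ± 1.24 in the libraries labelled Rorβ-CRISPR and 116 ± 3.41 in the control libraries. Sdc1 averaged 127 ± 2.52 in the libraries labelled Rorβ-CRISPR and 174 ± 6.25 in the control libraries. Both fell, by 0.51 and 0.45 (log2). Sdc3 had 627, 597 and 616 in the libraries labelled Rorβ-CRISPR, against 619, 623 and 612 in the control libraries. These ranges overlap, and the log2 difference was -0.01 (SE 0.022, adjusted p = 0.665), or 0.21 and called higher with library size only.

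The mix of glypican and syndecan reads stood apart in the 2 lines. Gpc1 took 47.5%, 47.6% and 47.9% of all reads in the 9 glypican and syndecan genes in the libraries labelled Rorβ-CRISPR, against 36.5%, 36.6% and 35.9% in the control libraries. Sdc2 took 11.2%, 11.5% and 11.1% in the libraries labelled Rorβ-CRISPR, against 18.4%, 18.1% and 18.7% in the control libraries. Such shares do not depend on the scaling of the libraries, but shifts of whole chromosomes remain in them. For each share the exact two-sided permutation p over libraries was 0.1, the smallest that 3 against 3 libraries allow.

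Versican had the largest difference of the 40 genes. Vcan had 36.5, 38.4 and 31.9 in the libraries labelled Rorβ-CRISPR, against 143, 141 and 140 in the control libraries (log2 fold change -1.96, SE 0.046, limma-trend adjusted p = 2.45e-25). The highest value in the libraries labelled Rorβ-CRISPR was far below the lowest control value. Its chromosome 13 had a median of 0.20, and centring took Vcan to -2.15. Its fold in the authors' deposited table was 0.252. Cspg4, the NG2 proteoglycan gene found on pericytes and progenitor cells, fell to 43.9 ± 2.16 in the libraries labelled Rorβ-CRISPR, against 60.3 ± 2.35 in the control libraries (log2 fold change -0.45). The part of the chondrocyte markers, whose lower sum came mostly from Col2a1, in these core protein values was not tested.

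**Figure D2:**
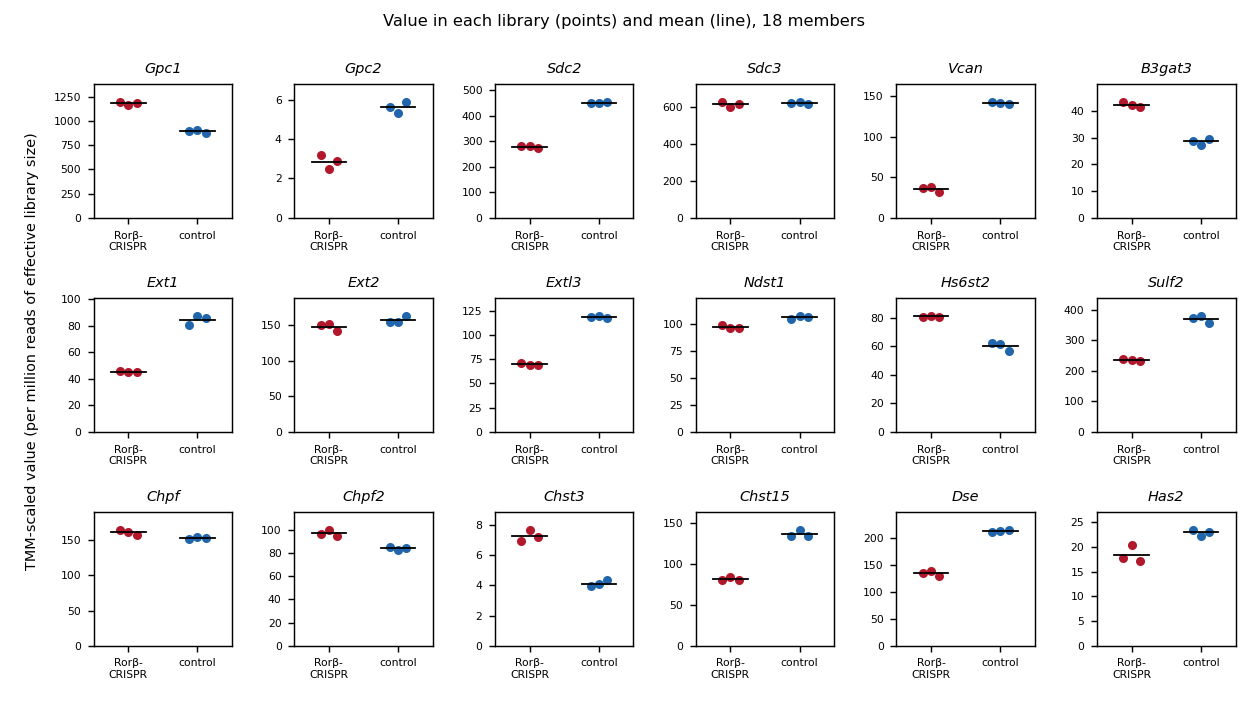
TMM-scaled value (y axis, from 0) in each Rorβ-CRISPR library (red, left) and each control library (blue, right) for 18 genes, with the group mean as a line. The largest gap is at Vcan, with means of 35.6 and 141, while the 2 groups overlap at Sdc3.

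Receptors of the ROR family bind the letters AGGTCA after a stretch rich in A and T, so promoter windows were searched for AGGTCA. The stretch rich in A and T was not required. TGGGTCA, which does not contain AGGTCA, was searched as well. Windows of 250 bases before to 50 bases after a start site came from RefSeq on GRCm38.p6 and matched 39 of the 51 genes with 46 windows. Gpc1, Gpc6, Sdc2, Xylt1, Ext1, Extl3, Ndst1, Sulf1, Chsy3, Csgalnact1, Has2 and Has3 had none. AGGTCA, on either strand, stood in 5 of the 46 windows (10.9%), in Sdc4, Extl2, Has1, Hs6st2 and Gpc4, and in 16.3% of all 32851 windows. TAGGTCA, which contains AGGTCA, stood in 0 of the 46 and in 2.61% of all windows. TGGGTCA stood in 2 of the 46 (4.35%), Ext2 and B3gat3, and in 3.98% of all. A match is only a run of letters, and its absence concerns this window alone. Of the 7 genes with a match, 3 were higher (B3gat3, Hs6st2 and Gpc4), 3 were lower (Sdc4, Extl2 and Ext2) and Has1 was not tested. The windows of B3gat3, Hs6st2 and Sdc4, whose differences were the largest of these, are shown with the match in capitals, together with Vcan, which had the largest difference of the 40 genes and no match. The B3gat3 window is chr19:8920143-8920442 on the plus strand, with the match at position -87 from the start and read on the opposite strand. Those of Sdc4 and Hs6st2 are chr2:164443139-164443438 and chrX:51681553-51681852, both on the minus strand. Their matches are at -196 on the strand shown and at -138 on the opposite strand. The Vcan window is chr13:89742463-89742762 on the minus strand.
B3gat3: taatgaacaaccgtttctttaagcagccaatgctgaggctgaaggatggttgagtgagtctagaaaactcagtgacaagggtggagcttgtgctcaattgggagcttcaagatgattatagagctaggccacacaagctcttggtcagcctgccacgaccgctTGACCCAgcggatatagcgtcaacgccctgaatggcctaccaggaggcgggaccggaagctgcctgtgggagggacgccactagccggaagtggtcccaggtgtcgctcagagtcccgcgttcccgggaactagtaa
Hs6st2: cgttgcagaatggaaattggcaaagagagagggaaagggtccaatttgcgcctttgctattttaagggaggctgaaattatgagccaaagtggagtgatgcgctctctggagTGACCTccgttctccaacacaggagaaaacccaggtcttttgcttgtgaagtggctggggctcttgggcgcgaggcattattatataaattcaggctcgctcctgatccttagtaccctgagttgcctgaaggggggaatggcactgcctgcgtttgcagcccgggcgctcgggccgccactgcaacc
Sdc4: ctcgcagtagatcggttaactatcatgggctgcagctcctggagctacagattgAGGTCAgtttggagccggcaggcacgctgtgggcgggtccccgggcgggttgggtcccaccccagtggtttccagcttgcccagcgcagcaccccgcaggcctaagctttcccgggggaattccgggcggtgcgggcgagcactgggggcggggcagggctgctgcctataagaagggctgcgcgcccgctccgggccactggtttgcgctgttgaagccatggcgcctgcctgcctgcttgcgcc
Vcan: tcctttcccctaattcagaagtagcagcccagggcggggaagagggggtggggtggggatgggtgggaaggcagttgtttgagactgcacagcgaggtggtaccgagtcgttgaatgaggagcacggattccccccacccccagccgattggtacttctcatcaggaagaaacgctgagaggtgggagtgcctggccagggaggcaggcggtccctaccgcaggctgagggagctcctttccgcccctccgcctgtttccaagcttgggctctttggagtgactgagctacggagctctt

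Linker genes were higher or not called in the libraries labelled Rorβ-CRISPR on the deposited scaling. B3gat3, whose enzyme adds the closing glucuronic acid of the linker, had 43.4, 42.3 and 41.3 in the libraries labelled Rorβ-CRISPR, against 28.8, 27.2 and 29.6 in the control libraries (log2 fold change 0.55, SE 0.048, limma-trend adjusted p = 1.76e-14). The groups did not overlap. B3galt6, which adds the second galactose, averaged 9.28 ± 1.03 in the libraries labelled Rorβ-CRISPR and 6.16 ± 0.589 in the control libraries, a rise of 0.52. Xylt2, the xylosyltransferase that starts the linker, rose by 0.14. Its call was lost without Rorβ-CRISPR replicate 1 (0.12) and without control replicate 1 (0.11). Its partner Xylt1 had 1 read in the libraries labelled Rorβ-CRISPR and 0 in the control libraries. B4galt7, which adds the first galactose, averaged 19.7 ± 1.24 in the libraries labelled Rorβ-CRISPR and 19.4 ± 1.32 in the control libraries (adjusted p = 0.737), and its log2 difference was 0.03. It stood at -0.17 after chromosome centring, called lower, and at 0.24 with library size only, called higher. The values of the linker genes summed to 106 to 112 in the libraries labelled Rorβ-CRISPR and 85.5 to 88.2 in the control libraries.

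All 4 tested genes of the EXT family were lower on the deposited scaling, where 33.3% of all tested genes were lower. Ext1, a subunit of the polymerase, had 45.6, 45.5 and 45.3 in the libraries labelled Rorβ-CRISPR, against 80.5, 87.7 and 85.7 in the control libraries (log2 fold change -0.88, SE 0.040, limma-trend adjusted p = 1.44e-25). Ext2, the other subunit, had 150, 151 and 142 in the libraries labelled Rorβ-CRISPR, against 154, 154 and 163 in the control libraries. Ext2 differed far less, by -0.09 (adjusted p = 0.00982), and with library size only it stood at 0.13 and was not called. The call for Ext2 was also lost without Rorβ-CRISPR replicate 3 (-0.06) and without control replicate 3 (-0.06). The ratio of Ext1 to Ext2 reads was 0.305, 0.301 and 0.320 in the libraries labelled Rorβ-CRISPR, against 0.523, 0.569 and 0.525 in the control libraries, and a ratio within a library does not depend on scaling. Extl3, whose enzyme starts the heparan chain, had 71.4, 69.3 and 69.3 in the libraries labelled Rorβ-CRISPR, against 119, 120 and 117 in the control libraries. It fell by 0.76 in log2 with no overlap. Extl2 fell by 0.26 and stood at -0.04, not called, with library size only. Ext1 lies on chromosome 15 and Extl3 on chromosome 14, and after chromosome centring they stood at -0.61 and -0.24. Extl1 had 69 reads in the libraries labelled Rorβ-CRISPR and 52 in the control libraries, a ratio of 1.21 with an exact 95% interval of 0.832 to 1.77.

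Enzymes that sulfate the heparan chain moved in both directions. Ndst1, an N-deacetylase and N-sulfotransferase that acts early on the chain, had 98.9, 96.02 and 96.04 in the libraries labelled Rorβ-CRISPR, against 105, 108 and 107 in the control libraries. It fell by 0.13 (log2, SE 0.033, limma-trend adjusted p = 3.38e-04), while with library size only it stood at 0.09 and was not called. Ndst2 averaged 21.3 ± 1.08 in the libraries labelled Rorβ-CRISPR and 30.6 ± 0.564 in the control libraries. Its log2 fold change of -0.50 was close to the median of chromosome 14, where it lies, and centring brought it to 0.01. Glce, the epimerase that turns glucuronic into iduronic acid, fell by 0.43, to 40.9 ± 0.701 in the libraries labelled Rorβ-CRISPR, against 55.7 ± 0.978 in the control libraries. Hs6st2, a 6-O-sulfotransferase, had 80.8, 81.6 and 81.0 in the libraries labelled Rorβ-CRISPR, against 62.7, 61.7 and 56.7 in the control libraries (log2 fold change 0.42, SE 0.039, adjusted p = 9.91e-14). It lies on chromosome X, whose median was higher, and stood at -0.23, called lower, after centring. Hs6st1 rose by 0.12 and stood at -0.003 after centring, and its call was lost without Rorβ-CRISPR replicate 1 (0.10) or without control replicate 1 (0.10) or 3 (0.11). Hs2st1, the 2-O-sulfotransferase, differed by 0.10 with overlapping groups (adjusted p = 0.0324). That call was lost with DESeq2 (adjusted p = 0.0542), without control replicate 1 (0.07) or 2 (0.10), and without Rorβ-CRISPR replicate 2, where limma-trend gave 0.04 (adjusted p = 0.355). Ndst3 had 16 reads in the libraries labelled Rorβ-CRISPR, 14 of them in replicate 3, and 11 in the control libraries.

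The 3-O-sulfotransferases were near or at 0. Hs3st3a1 had 7, 11 and 6 reads in the libraries labelled Rorβ-CRISPR, against 0, 0 and 0 in the control libraries. Set against a floor of 3 reads over the control group, that is at least 7.29-fold higher, counting error aside. In GENCODE M21 32.9% of its exon bases are shared with F930015N05Rik on the other strand, and the strand of the reads is not stated. Hs3st1 had 1 read in the libraries labelled Rorβ-CRISPR and 0 in the control libraries. Hs3st3b1 had 0 in both groups, which allows up to 3 reads in each group.

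Of 3 genes for trimming of heparan sulfate outside the cell, Sulf2 was the one tested, and it was lower. Sulf2, an endosulfatase that removes 6-O-sulfate groups, had 240, 235 and 231 in the libraries labelled Rorβ-CRISPR, against 375, 381 and 356 in the control libraries (log2 fold change -0.66, SE 0.027, limma-trend adjusted p = 1.63e-27). The lowest control value lay well above the highest Rorβ-CRISPR value. Sulf1, the second endosulfatase, did not pass the filter and had 2, 2 and 6 reads in the libraries labelled Rorβ-CRISPR, against 24, 26 and 23 in the control libraries. Scaled by effective size, the reads stood in a ratio of 0.125 (exact 95% interval 0.0575 to 0.243). The fold in the authors' deposited table was 0.129 (q = 1.58e-10). With a filter at 0.1, Sulf1 and Hs3st3a1 were called by limma-trend, at adjusted p = 2.53e-07 and 0.00804. Hs3st3a1 passed that filter through the libraries labelled Rorβ-CRISPR alone, and Sulf1 could not have passed without the control libraries. These calls therefore add no support to the read counts. Hpse, the heparanase gene, had 36 reads in the libraries labelled Rorβ-CRISPR and 21 in the control libraries, a ratio of 1.56 with an interval of 0.888 to 2.82.

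Genes of the chondroitin chain differed little. Chpf2, a chain-lengthening enzyme, had 96.2, 100.2 and 94.97 in the libraries labelled Rorβ-CRISPR, against 85.5, 82.2 and 84.7 in the control libraries (log2 fold change 0.20, SE 0.035, limma-trend adjusted p = 9.32e-07). Chpf, the polymerising factor, had 165, 162 and 157 in the libraries labelled Rorβ-CRISPR, against 152, 154 and 153 in the control libraries, a rise of 0.07. Both sets lay above the control libraries without overlap, but after chromosome centring they stood at -0.0001 and -0.05, neither called. The call for Chpf was lost without Rorβ-CRISPR replicate 1 (0.06) or 2 (0.07) and without control replicate 1 (0.07) or 3 (0.07). Chsy1, a chondroitin synthase, rose by 0.11. Csgalnact1 and Csgalnact2, which start the chain, fell by 0.25 and 0.09, at adjusted p = 0.0406 and 0.0304. With library size only Csgalnact1 was not called and Csgalnact2 stood at 0.13, not called, and DESeq2 called neither (adjusted p = 0.105 and 0.0682). Csgalnact1 was called in 1 of 6 fits that left out a library, that without control replicate 2, and stood between -0.26 and -0.23 in the others. The call for Csgalnact2 was lost without Rorβ-CRISPR replicate 1 (-0.06) or 3 (-0.08) and without control replicate 3 (-0.06). Chsy3 had 0 reads in all 6 libraries.

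Chondroitin sulfotransferase and epimerase genes differed more, and not in one direction. Chst3, a chondroitin 6-O-sulfotransferase, had 6.96, 7.70 and 7.19 in the libraries labelled Rorβ-CRISPR, against 3.95, 4.10 and 4.33 in the control libraries (log2 fold change 0.69, SE 0.093, limma-trend adjusted p = 6.25e-09). It was the one gene of the 40 higher by at least 0.58 on this scale, where B3galt6 stood at 0.52. With edgeR, DESeq2 or a pseudocount of 0.1, B3galt6 stood at 0.59, 0.59 and 0.58. Chst15, which adds 6-O-sulfate to units already 4-O-sulfated, had 80.7, 84.7 and 80.3 in the libraries labelled Rorβ-CRISPR, against 134, 142 and 135 in the control libraries (log2 fold change -0.74, SE 0.034, adjusted p = 2.26e-25). Dse, the epimerase that makes dermatan sulfate, had 134, 139 and 129 in the libraries labelled Rorβ-CRISPR, against 210, 212 and 215 in the control libraries. Dse fell by 0.66, and Ust, which adds 2-O-sulfate to uronic acids, fell by 0.51. The 4-O-sulfotransferase genes differed in sign: Chst12 rose by 0.17, though it stood at -0.04, not called, after chromosome centring, and Chst11 fell by 0.17, though it stood at 0.05, not called, with library size only.

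Ratios within a library, chosen after the values were seen, set these genes against each other free of scaling. They are not free of the shifts of whole chromosomes given below. The ratio of Chst3 to Chst15 reads averaged 0.0889 ± 0.00243 in the libraries labelled Rorβ-CRISPR and 0.0301 ± 0.00176 in the control libraries, a fold of 2.95. Chst12 to Chst11 averaged 2.32 ± 0.133 in the libraries labelled Rorβ-CRISPR and 1.82 ± 0.048 in the control libraries. Chst12 lies on chromosome 5, whose median log2 fold change was 0.21, and Chst11 on chromosome 10, whose median was -0.04. Gpc1 to Sdc2 averaged 4.23 ± 0.088 in the libraries labelled Rorβ-CRISPR and 1.98 ± 0.052 in the control libraries, a fold of 2.14. Hs6st2 to Hs6st1 averaged 1.68 ± 0.047 in the libraries labelled Rorβ-CRISPR and 1.36 ± 0.076 in the control libraries. After chromosome centring Hs6st2 stood at -0.23 and Hs6st1 at -0.003 (log2), the opposite order. Gpc1 and Sdc2 then stood at 0.28 and -0.42. For these ratios and that of Ext1 to Ext2, 5 in all, no library of one group fell within the other. The exact two-sided permutation p was 0.1 for each, the smallest possible, and 0.1 after adjustment over the 5. Because the pairs were picked with their values known, neither the separation nor these p-values add support.

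Hyaluronan genes changed little. Has2, a hyaluronan synthase of the plasma membrane, had 17.8, 20.4 and 17.2 in the libraries labelled Rorβ-CRISPR, against 23.5, 22.3 and 23.1 in the control libraries (log2 fold change -0.30, SE 0.062, limma-trend adjusted p = 2.66e-05). It lies on chromosome 15 and stood at -0.03 after centring, not called, and at -0.09, not called, with library size only. Has3 averaged 17.2 ± 1.08 in the libraries labelled Rorβ-CRISPR and 18.6 ± 1.36 in the control libraries (adjusted p = 0.152), and its log2 difference of -0.11 turned to 0.11 with library size only. Has1 had 22 reads in the libraries labelled Rorβ-CRISPR and 10 in the control libraries, a ratio of 2.01 with an interval of 0.912 to 4.75. Of the hyaluronidase genes, Hyal2 rose by 0.16 and Hyal1 fell by 0.19, at adjusted p = 0.0234 and 0.0277, and Hyal1 stood at 0.02 with library size only. The call for Hyal1 was lost without Rorβ-CRISPR replicate 2 (-0.16) and without control replicate 1 (-0.17) or 3 (-0.19). That for Hyal2 was lost without Rorβ-CRISPR replicate 1 (0.15) or 3 (0.13) and without control replicate 3 (0.11). In GENCODE M21 22.8% of the exon bases of Hyal1 are shared with its neighbours Naa80 and Hyal3.

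To compare levels between genes, values were divided by exon length from GENCODE M21, which is not the authors' annotation. Per kb of exon, Gpc1 had the highest level of the 40 genes, with 283 in the libraries labelled Rorβ-CRISPR and 214 in the control libraries. In the libraries labelled Rorβ-CRISPR Sdc3 came next at 123 per kb and then Sdc2 at 79.3. In the control libraries Sdc2 stood at 128 per kb and Sdc3 at 124, with Sdc2 above Sdc3 in each library. Sulf2, with 47.3 per kb in the libraries labelled Rorβ-CRISPR and 74.6 in the control libraries, was the highest of the tested enzymes in the control libraries, and Chpf, with 52.5 and 49.9, in the libraries labelled Rorβ-CRISPR. Within the polymerase, Ext2 stood at 40.5 per kb in the libraries labelled Rorβ-CRISPR and 43.1 in the control libraries, and Ext1 at 5.93 and 11.0. Csgalnact1 was lowest, at 0.406 per kb in the libraries labelled Rorβ-CRISPR and 0.530 in the control libraries.

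**Figure D3:**
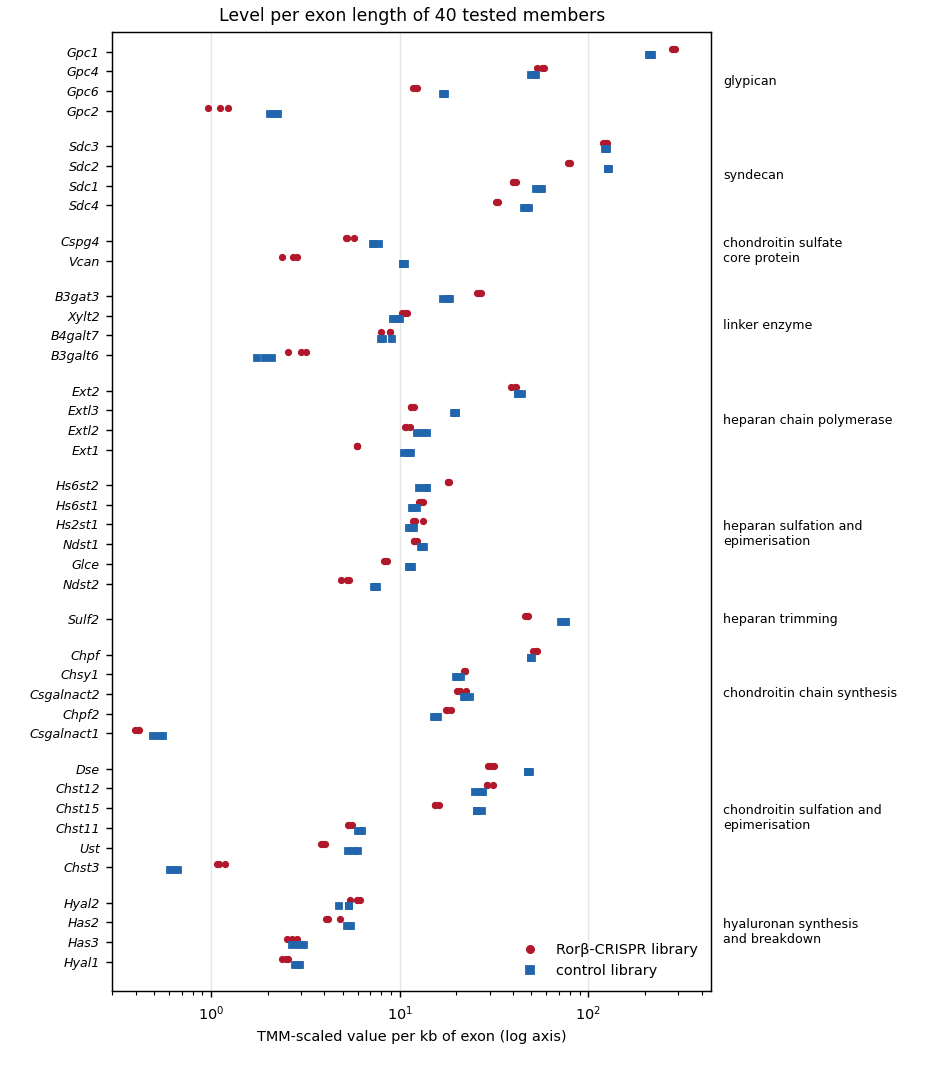
TMM-scaled value per kb of exon (x axis, log scale) of the 40 tested genes, in rows grouped by role, with each Rorβ-CRISPR library as a red circle and each control library as a blue square beneath. Gpc1 lies furthest right, at means of 283 and 214, and Csgalnact1 furthest left.

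Whole chromosomes differed between the lines, which touches several of these genes. Chromosomes were taken by symbol from RefSeq on GRCm38.p6 for 93.2% of tested genes. In the libraries labelled Rorβ-CRISPR 361 of 435 genes of chromosome X were higher, 340 of 401 of chromosome 14 lower and 323 of 479 of chromosome 15 lower. Shifts were smaller on chromosomes 5, 13 and 1, where 487 of 779, 264 of 465 and 367 of 747 genes were higher and the medians were 0.21, 0.20 and 0.12. Of the 40 genes, Gpc4 and Hs6st2 lie on X, Gpc6, Ndst2 and Extl3 on 14, and Sdc2, Ext1 and Has2 on 15. Gpc2, Chpf2 and Chst12 lie on 5, Vcan and B4galt7 on 13, and Gpc1, Hs6st1 and Chpf on 1. Centring turned the sign of 10 genes, which were Gpc4, Hs6st2, Gpc6, Ndst2, Chpf2, Chst12, B4galt7, Hs6st1, Chpf and Sdc3, while Gpc1 stood at 0.28. Centring each chromosome, by the median deviation of its genes, a step chosen after the data were seen, left 20 lower and 8 higher, against 31.5% and 31.4% of all genes. Centring on the median level of each chromosome gave 21 lower and 7 higher, against 32.2% and 30.3% of all genes. Vcan, Chst15, Dse, Sulf2, Sdc1 and Sdc4 lie on none of X, 14 and 15, and after centring they stood at -2.15, -0.70, -0.61, -0.64, -0.44 and -0.50.

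**Figure D4:**
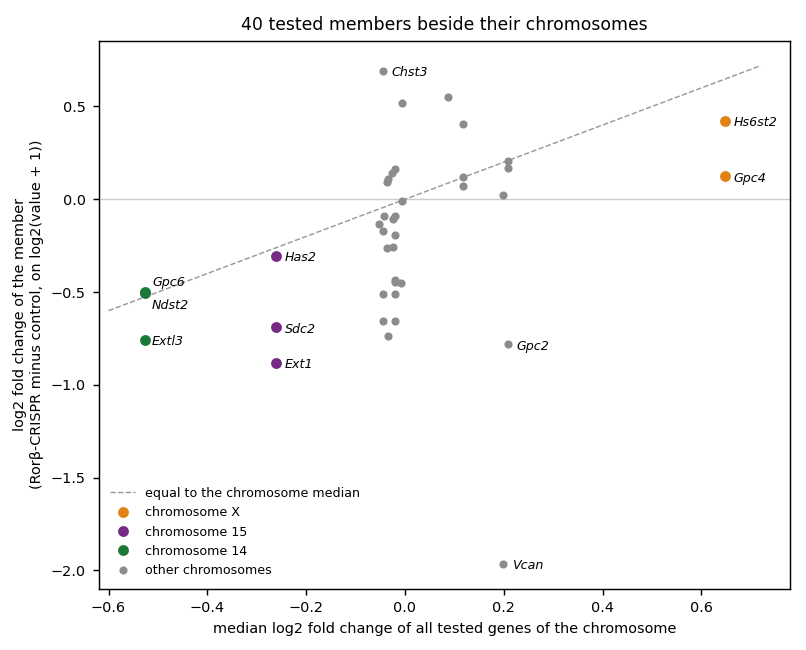
Log2 fold change of each of the 40 tested genes (y axis, Rorβ-CRISPR minus control) against the median log2 fold change of all tested genes of its chromosome (x axis), with genes of chromosomes X, 15 and 14 in colour and the dashed line where both are equal. Gpc6 and Ndst2 lie on the line, Gpc4 and Hs6st2 below it, and Vcan far below it.

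Genes that supply sulfate and sugars to these enzymes were tested as a wider list. Of 15 such genes 14 were tested, 7 were higher and 7 lower, with a median of 0.01. Over all tested genes the shares were 32.9% higher and 33.3% lower. The synthases of the sulfate donor PAPS differed in sign. Papss1 had 239, 237 and 231 in the libraries labelled Rorβ-CRISPR, against 181, 182 and 179 in the control libraries (log2 fold change 0.38). Papss2, whose loss in humans causes a skeletal dysplasia, had 50.5, 52.1 and 48.3 in the libraries labelled Rorβ-CRISPR, against 77.5, 77.4 and 77.5 in the control libraries (log2 fold change -0.61). Uxs1, which makes the xylose donor of the linker, rose by 0.58, to 71.2 ± 1.57 in the libraries labelled Rorβ-CRISPR, against 47.3 ± 1.44 in the control libraries.

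Further enzymes of the same families numbered 19, of which 8 were tested. Of these 4 were higher and 1 lower, against 32.9% and 33.3% of all tested genes, and the list median was 0.14. Cemip, needed for hyaluronan breakdown, had 87.4, 86.7 and 79.5 in the libraries labelled Rorβ-CRISPR, against 50.3, 51.7 and 49.3 in the control libraries (log2 fold change 0.73, limma-trend adjusted p = 3.47e-22). Tmem2, a cell surface protein also linked to hyaluronan breakdown, fell by 0.22. Dsel, the relative of Dse, rose by 0.44, to 41.4 ± 1.27 in the libraries labelled Rorβ-CRISPR, against 30.2 ± 0.098 in the control libraries. Dse and Dsel thus differed in opposite directions.

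Among 14 other core protein genes 6 were tested, 2 were higher and 3 lower, against 32.9% and 33.3% of all tested genes. Their median was -0.03, and these 6 included far larger differences. Col18a1, a basement membrane collagen that carries heparan sulfate, had 8.48, 8.70 and 9.66 in the libraries labelled Rorβ-CRISPR, against 83.8, 83.6 and 80.2 in the control libraries (log2 fold change -3.07, SE 0.054, limma-trend adjusted p = 1.90e-43). Spock2, a testican, had 45.7, 44.0 and 44.4 in the libraries labelled Rorβ-CRISPR, against 2.25, 3.40 and 3.39 in the control libraries (log2 fold change 3.52). Agrn, the agrin gene, fell by 0.21. Acan, the cartilage aggrecan gene, had 0 reads in all libraries.

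Of 14 genes of lysosomal breakdown all were tested, 4 were higher and 6 lower, against 32.9% and 33.3% of all tested genes. The median of the list was -0.06. Ids, the iduronate sulfatase gene on chromosome X, had 90.7, 96.3 and 92.8 in the libraries labelled Rorβ-CRISPR, against 45.4, 44.5 and 46.7 in the control libraries (log2 fold change 1.02, limma-trend adjusted p = 1.03e-28). The median log2 fold change of chromosome X was 0.65. Hexa and Sumf1 fell by 0.52 and 0.39. Of 9 hyaluronan-binding genes 6 were tested, 4 were lower and 2 not called, where 33.3% of all tested genes were lower. Tnfaip6 and Hapln1 were below 1 in every library labelled Rorβ-CRISPR and passed the filter through the control libraries alone, so this count supports nothing about the list. Tnfaip6, which moves heavy chains onto hyaluronan, had 0.785, 0.716 and 0.771 in the libraries labelled Rorβ-CRISPR, against 7.25, 7.61 and 6.83 in the control libraries, a ratio of means of 0.105. On the log2(value + 1) scale, which shrinks such low values, the log2 fold change was -2.23. Of the link protein genes Hapln4 fell, at -1.70 (log2). Hapln1 was low, with 0.212 ± 0.122 in the libraries labelled Rorβ-CRISPR and 1.44 ± 0.223 in the control libraries, a ratio of means of 0.147. Cd44, the main hyaluronan receptor gene, averaged 496 ± 6.64 in the libraries labelled Rorβ-CRISPR and 501 ± 7.57 in the control libraries (adjusted p = 0.586).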

How the data were processed

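Per the submitters' processing notes, reads were handled with TopHat2 2.0.6 and HTSeq on build mm9. The sources used here do not give the annotation, strand or counting options. The deposited values per library are a signal scaled with TMM, per the file headers. Beside these the authors deposited group medians of counts, a fold (ratio), a p-value and a q-value for each gene. Divided by what 1 read is worth in a library, 100% of values were whole within 0.01. Group medians of these recovered reads matched the deposited medians exactly in 43346 of 43346 rows.

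Because values were scaled, log2(value + 1) was tested with limma-trend (robust), fitted over all 13498 rows that passed the filter. Count tests on the recovered reads were alternatives, and edgeR called 4394 genes higher and 4464 lower. The members, lists and tests were chosen with earlier results of these data known. Values per library are given for called genes of at least 0.58 (log2), and in each role for the gene of smallest adjusted p and of highest mean. Lists were described with up to 3 called genes of smallest adjusted p. Other genes, among them Gpc4, Gpc6, Sdc1, Sdc4, Cspg4, Glce, Cd44 and Acan, were named after their values were seen. The software was Python 3.11.15 with scipy 1.17.1, and R 4.3.3 with DESeq2 1.42.0, limma 3.58.1 and edgeR 4.0.16.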

Additional observations from a re-analysis of the deposited data

How the results depend on the processing

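Counts of the 40 tested genes, 14 higher and 23 lower in the Rorβ-CRISPR libraries, were the same with edgeR, DESeq2 size factors and pseudocounts of 0.1 and 0.5. They were 13 and 21 with DESeq2, which lost Hs2st1, Csgalnact1 and Csgalnact2, 12 and 21 with no filter, and 10 and 20 at an adjusted p of 0.01 (all genes 4201 and 4238, 4631 and 4733, 3852 and 3934). The replicate numbers gave deviations that correlated at -0.06, 0.17 and 0.13 between same-numbered libraries, and at -0.21 to 0.11 between the others. With 3 libraries per group these values cannot settle whether the numbers pair the samples. A replicate block gave 14 and 23. Leaving out 1 library gave 10 to 13 higher and 19 to 23 lower, and over all genes 4046 to 4240 higher and 4095 to 4310 lower. Tested against a fold of 1.5, 0 were higher and 5 lower (over all genes 413 and 645). The 0 higher came from limma-trend, which also gave 0 at an unadjusted p of 0.05, and no other tool was run against that fold. With library size only 15 were lower, and over all genes 7291 were higher and 1975 lower.

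Signs turned for 7 genes with library size only (log2): Sdc3 0.21, Ext2 0.13, Ndst1 0.0896, Csgalnact2 0.13, Chst11 0.0504, Has3 0.11 and Hyal1 0.0157. Signs also turned for 10 genes after chromosome centring, by median level and by median deviation. In that order the values were -0.51 and -0.53 for Gpc4, 0.0313 and 0.0142 for Gpc6, 0.0278 and 0.000539 for Sdc3, -0.19 and -0.17 for B4galt7, 0.0270 and 0.00986 for Ndst2, -0.0182 and -0.00291 for Hs6st1, -0.21 and -0.23 for Hs6st2, -0.0636 and -0.0483 for Chpf, -0.0290 and -9.86e-05 for Chpf2, and -0.0681 and -0.0392 for Chst12. Counts higher were then 7 and 8. Leaving out 1 library gave -0.0276 to 0.00726 for Sdc3, positive without Rorβ-CRISPR replicate 2, and -0.00812 to 0.0778 for B4galt7, negative without Rorβ-CRISPR replicate 1 or control replicate 3. The chromosome step by deviation was chosen after the data were seen. Depth limits the 11 genes below the filter, whose reads per library were at most 27.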
